A study of Mus musculus with 12 samples.

Results

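The 10 genes described here lie beside Ppara on mouse chromosome 15 and differed in level between livers of Ppara KO and WT mice. They are Cyb5r3, Ttll1, Ttll12, Prr5, Fam118a and Atxn10, which come before Ppara in the gene order, and Pkdrej, Ttc38, Celsr1 and Gramd4, which come after it. Each was measured by 1 transcript cluster, a set of short array probes combined into 1 value per animal, and together they are 10 of the 22180 named genes on the array. They were taken by name from the genes within 50 places of Ppara, and earlier results of these arrays were known when they were chosen. Their Ppara KO against WT differences and adjusted p-values are therefore given as a description, not as support. Of the 10, 8 were lower and 2, Fam118a and Pkdrej, were higher in Ppara KO livers. The differences ran between a 1.17-fold decrease for Ttll12 and a 2.0-fold decrease for Cyb5r3 among the lower genes, and were a 1.27-fold and a 1.97-fold increase for the higher ones.

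The arrays compared 6 Ppara KO and 6 WT mice, all adult females of 12 to 14 weeks on a C57Bl/6 background kept on a 12-hour light and dark cycle, with 1 liver array per mouse. Ppara KO animals carry a disrupted Ppara gene. How that allele was made, and what share of the chromosome beside it was bred along with it, was not stated in the labels. Values are log2 levels, so a difference of 1 is a 2-fold change. Hepatocyte markers were high in every animal: the mean of 8 markers, among them Alb and Apoa1, was 11.89 to 11.96 in Ppara KO and 11.88 to 11.93 in WT livers, and 1 of the 8, Cyp2e1, differed (higher in Ppara KO by 0.24 with an SE of 0.055, limma adjusted p = 0.00967). Pancreatic acinar markers were low in all, with a mean of 3.64 to 3.89 in Ppara KO and 3.68 to 3.87 in WT livers. Some markers of 3 other cell types or states were called lower in Ppara KO. The mean of 8 adipocyte markers was 5.24 to 5.46 in Ppara KO and 5.38 to 6.94 in WT livers. Of the 8, 2 were called lower (Adipoq and Lipe, the first not without Ppara KO 1, 2, 3 or 6 or WT 3, left out 1 at a time). Car3, also among the 8, was at 12.17 in Ppara KO and 12.25 in WT livers, far above the others, and raises both ranges. The mean of 5 proliferation markers was 3.88 to 4.28 in Ppara KO and 4.53 to 5.56 in WT livers, with 3 of 5 called lower (Mki67, Top2a and Plk1). The mean of 5 cholangiocyte markers was 4.02 to 4.45 in Ppara KO and 4.16 to 4.46 in WT livers, with 2 of 5 called lower, Krt19 (-0.26 ± 0.070, limma adjusted p = 0.0301) and Sox9 (-0.39 ± 0.11, limma adjusted p = 0.0392), calls that were lost without any 1 of 6 and of 8 animals. The part of these cells in the values of the 10 genes was not tested. The highest adipocyte means were in WT 1, 3 and 5 and the highest proliferation means in WT 1, 2 and 3. No difference of the 10 genes moved by as much as its SD within genotype when either trio was left out. For Ttll1, Prr5, Fam118a, Atxn10, Pkdrej and Celsr1 it could not, since leaving out 3 of 6 animals cannot shift their WT mean that far. Gramd4 went from -0.62 (SE 0.11) to -0.78 without WT 1, 2 and 3, and Pkdrej from 0.98 (SE 0.17) to 1.18 without WT 1, 3 and 5. With either trio left out, Ttll12, Prr5 and Fam118a were no longer called.

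PPARα, the product of Ppara, is a nuclear receptor that is activated by fatty acids and turns on genes of fatty acid oxidation in hepatocytes. It pairs with the receptor RXR and binds repeats of a short hexamer in the DNA of its target genes. Genes that lie close together on a chromosome are inherited together, so mice bred for a disrupted gene also share the stretch of DNA around it. All 6 Ppara KO animals have both the disrupted gene and its surroundings, so an effect of the missing receptor on a neighbouring gene and an effect of the DNA around it cannot be told apart in these arrays.

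Promoter windows were available in RefSeq (build GRCm38.p6) for 6 of the 10 genes, in 12 windows of 300 bases, each from 250 bases before to 50 bases after a start site. They were searched on both strands for the receptor hexamer AGGTCA, for its direct repeat (the hexamer written 2 times with 1 base of any kind between), whose matches also match the hexamer, and for the E-box CACGTG that clock factors bind. The direct repeat was in 0 of the 12 windows and in 0.0396% of all 32851 windows. Only exact copies were sought, and they are so rare that 0 of 12 does not show whether these genes have a receptor site. The hexamer was in 2 of the 12 windows, both of Fam118a and overlapping, and in 16.3% of all windows, and the E-box was in 2 of the 12, both of Gramd4 and overlapping, and in 7.15% of all windows. The GC box GGGCGG was in 10 of the 12 windows and in 35.7% of all, and 10 of the 12 had a GC content above the median of all windows, 52.7%. The 12 windows come from 6 genes and some of Fam118a and of Gramd4 overlap, so they are not independent of one another. The windows of Fam118a and Gramd4 are shown because they hold the hexamer and the E-box, in capitals, and that of Ttc38 because it is the gene with the largest difference among those with a window, without a match to either. They lie at chr15:85042475-85042774, chr15:86058477-86058776 and chr15:85832054-85832353, all on the plus strand.
Fam118a: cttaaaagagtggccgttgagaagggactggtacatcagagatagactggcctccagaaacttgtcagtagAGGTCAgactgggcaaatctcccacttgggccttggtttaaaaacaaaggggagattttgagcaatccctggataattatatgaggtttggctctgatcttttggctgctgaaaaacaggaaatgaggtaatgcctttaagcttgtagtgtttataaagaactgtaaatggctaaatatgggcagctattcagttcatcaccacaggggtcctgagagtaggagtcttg
Gramd4: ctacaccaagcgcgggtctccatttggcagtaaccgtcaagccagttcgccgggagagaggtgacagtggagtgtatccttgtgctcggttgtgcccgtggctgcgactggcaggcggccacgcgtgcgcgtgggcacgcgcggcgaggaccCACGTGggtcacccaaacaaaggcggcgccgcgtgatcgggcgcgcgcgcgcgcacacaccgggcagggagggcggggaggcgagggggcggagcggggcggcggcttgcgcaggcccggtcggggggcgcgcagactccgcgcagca
Ttc38: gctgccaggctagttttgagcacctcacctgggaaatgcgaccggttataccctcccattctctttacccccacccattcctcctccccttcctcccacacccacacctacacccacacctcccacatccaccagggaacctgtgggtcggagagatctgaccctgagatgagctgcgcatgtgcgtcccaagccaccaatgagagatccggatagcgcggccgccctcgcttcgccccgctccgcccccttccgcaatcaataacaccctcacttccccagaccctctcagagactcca

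Ppara itself did not separate the genotypes on these arrays. Its level was 7.81, 8.04 and 8.16 (lowest, median and highest) in Ppara KO livers, against 7.71, 8.05 and 8.14 in WT livers, a difference of 0.03 ± 0.085 (SE, n = 6 each, exact 2-sided permutation p = 0.712). The labels do not say whether its probes fall inside the disrupted stretch, so this value checks nothing about the genotype labels.

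Cyb5r3 encodes the NADH-dependent reductase of cytochrome b5, which passes electrons on to fatty acid desaturation, elongation and cholesterol synthesis in the endoplasmic reticulum. Its level was 10.90, 10.92 and 11.02 (lowest, median and highest) in Ppara KO livers, against 11.88, 11.94 and 12.01 in WT livers. The 6 Ppara KO animals thus spanned 0.12 and the 6 WT animals 0.12 log2 units, with an empty gap of 0.86 between the genotypes. The difference of -1.00 ± 0.056 (SE) was 19.6 times the SD within genotype, and 1 of the 22180 genes had a larger such ratio. Cyb5r3 stands 41 places before Ppara and is the farthest of the 10 genes from it.

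The tubulin tyrosine ligase-like genes Ttll1 and Ttll12 follow on the same side, 36 and 32 places before Ppara. Ttll1 encodes the catalytic subunit of a tubulin polyglutamylase, which adds glutamate chains to tubulin in cilia and axons, and Ttll12 a relative of that enzyme family. Ttll1 had a level of 6.22, 6.37 and 6.55 (lowest, median and highest) in Ppara KO livers, against 6.57, 6.76 and 6.88 in WT livers, a difference of -0.38 ± 0.080 (SE). Ttll12 had 6.78, 6.87 and 6.92 in Ppara KO livers, against 6.94, 7.09 and 7.19 in WT livers, a difference of -0.22 ± 0.061. For both genes the highest Ppara KO animal, number 1, came within 0.02 of the lowest WT animal, so the genotypes met without overlapping.

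Prr5 encodes Protor-1, a protein bound to Rictor in the kinase complex mTORC2, and lies 20 places before Ppara. Its level was 5.25, 5.47 and 5.74 in Ppara KO livers (lowest, median and highest), against 5.73, 5.82 and 5.86 in WT livers, with a difference of -0.35 ± 0.080 (SE). The overlap came from Ppara KO 1, the highest of its group. The Ppara KO animals were more spread out than the WT animals, with an SD of 0.179 in Ppara KO and 0.0483 in WT.

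Celsr1 and Pkdrej encode large membrane proteins and lie 6 and 2 places after Ppara. Celsr1 is an atypical cadherin with a receptor-like membrane part that acts in planar cell polarity, the alignment of cells within an epithelium. Its level was 5.32, 5.61 and 6.27 (lowest, median and highest) in Ppara KO livers, against 6.36, 6.63 and 6.97 in WT livers, a difference of -0.97 ± 0.15 (SE). The highest Ppara KO value was that of animal 2, and without it the difference was -1.09. Pkdrej, a polycystin family member related to the sea urchin sperm receptor for egg jelly and known from the testis, was the gene with the largest increase. It had 4.43, 4.95 and 5.37 in Ppara KO livers, against 3.39, 4.01 and 4.37 in WT livers, a difference of 0.98 ± 0.17. The genotypes did not overlap for either gene, although single animals within a genotype lay up to 0.95 apart for Celsr1 and up to 0.97 apart for Pkdrej.

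Gramd4 encodes a membrane protein with a GRAM domain that is linked to cell death in human cells, and lies 7 places after Ppara. Its level was 4.58, 4.85 and 5.12 in Ppara KO livers (lowest, median and highest), against 5.11, 5.54 and 5.75 in WT livers, a difference of -0.62 ± 0.11 (SE). The genotypes touched, since Ppara KO 3 was at 5.12 and WT 3 at 5.11. Without WT 3 the difference was -0.69.

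The remaining genes are less well characterised. Ttc38, 3 places after Ppara, encodes a tetratricopeptide repeat protein, a kind of protein that binds other proteins. It had 7.37, 7.54 and 7.61 (lowest, median and highest) in Ppara KO livers, against 8.19, 8.45 and 8.77 in WT livers, a difference of -0.96 ± 0.10 (SE). A gap of 0.57 separated the genotypes, and the Ppara KO animals lay closer together than the WT animals, with an SD of 0.103 in Ppara KO and 0.249 in WT. Atxn10, 7 places before Ppara, encodes ataxin-10, whose human gene carries a repeat expansion in a form of spinocerebellar ataxia. Its level was 7.77, 7.92 and 8.02 in Ppara KO livers, against 8.19, 8.25 and 8.42 in WT livers, a difference of -0.37 ± 0.067, and no animals overlapped. Fam118a, 13 places before Ppara, had 4.97, 5.40 and 5.61 in Ppara KO livers, against 4.88, 5.03 and 5.14 in WT livers, a difference of 0.34 ± 0.096. Its overlap came from Ppara KO 2, which lay inside the WT range, and the difference without that animal was 0.41.

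**Figure D1:**
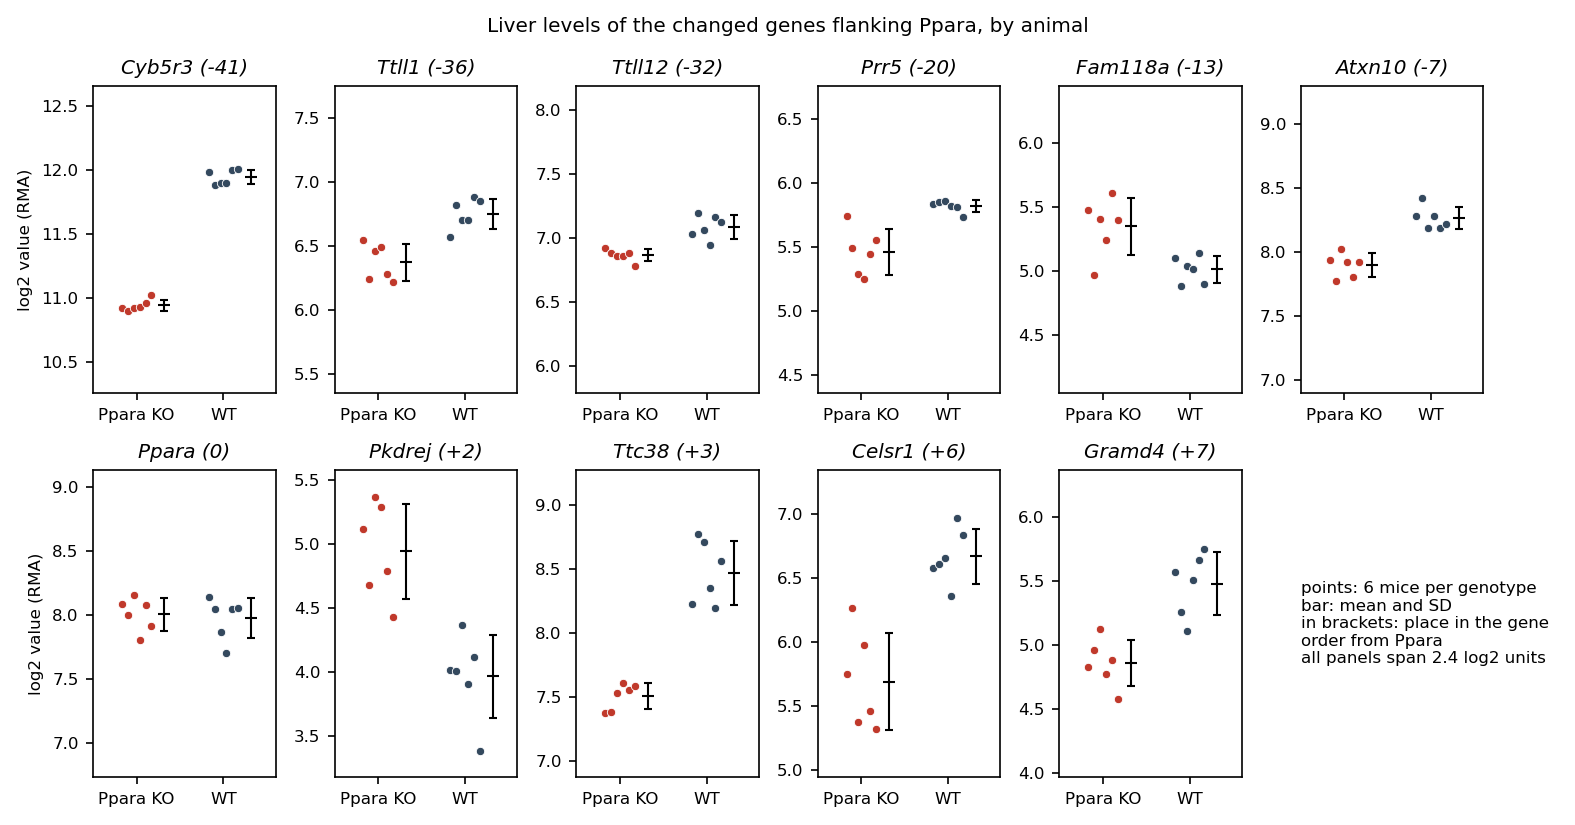
Log2 level of each of the 10 genes and of Ppara in 6 Ppara KO (red, left) and 6 WT mice (dark, right), 1 point per animal, with the mean and SD beside the points and the place in the gene order in brackets. Cyb5r3 and Ttc38 have the widest gaps between genotypes, 0.86 and 0.57, and Ppara itself overlaps throughout.

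In 7 of the 10 genes the 6 Ppara KO values did not overlap the 6 WT values, and in 3, Prr5, Fam118a and Gramd4, they did. Of the 7, 1 (Pkdrej) was higher and 6 were lower in Ppara KO. Over all 22180 genes 6.51% had groups that did not overlap, 2.73% with the higher and 3.78% with the lower values in Ppara KO. The rule that chose the genes used this contrast, so nothing is read from that comparison. All 10 had an adjusted p under 0.05 in a limma fit over all genes, as did 10.2% of all genes, and the p-values lay between 3.24e-08 for Cyb5r3 and 0.0351 for Fam118a. The calls of Ttll12 and Fam118a were each lost without any 1 of 8 of the 12 animals, and those of Ttll12, Prr5 and Fam118a without WT 1, 3 and 5 and without WT 1, 2 and 3. Among the neighbours just around that threshold, Klhdc7b (0.0387) was called without being among the 10, and Rrp7a (0.0516) was the first that was not called.

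The genes were chosen with earlier results known, and the limma statistic divides a difference by its error. The spread within a genotype may thus have entered the choice, so the spreads are a description too. The pooled SD within genotype was 0.0513 for Cyb5r3, the lowest of the 10, and 0.348 for Pkdrej, the highest, a 6.8-fold range, with a median of 0.152, against 0.164 over all genes. Spread differs with level on these arrays, so each gene was also set beside the 1000 genes of the most similar mean level. Of those, 6.9% had a smaller SD than Cyb5r3, 6.5% a smaller one than Ttll12 and 30.3% a smaller one than Atxn10. Cyb5r3 is brighter than 99.6% of all genes, so the genes it was set beside are nearly all dimmer, and its share is a rough guide only. At the other end, 97.1% had a smaller SD than Pkdrej, 96.2% than Celsr1 and 86.7% than Ttc38. Genes with differences of like size therefore differed widely in their spread: Cyb5r3, Celsr1, Pkdrej and Ttc38 all changed by 0.96 to 1.00 log2 units, and their pooled SDs were 0.0513, 0.306, 0.348 and 0.191. The SD was larger in Ppara KO than in WT for 6 of the 10 genes, and over all genes for 50.7%.

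**Figure D2:**
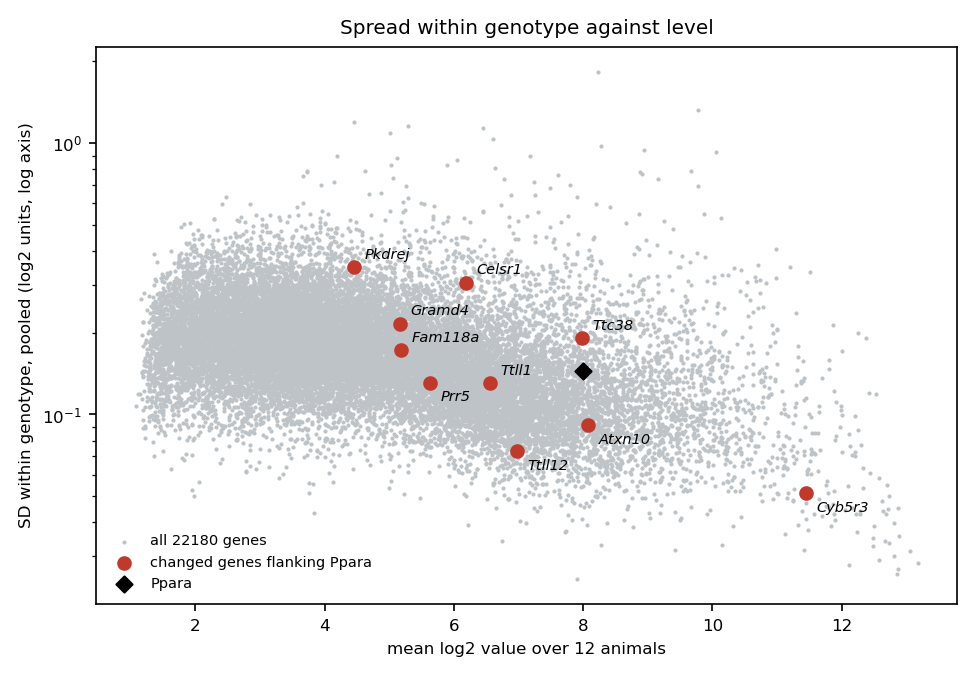
SD within genotype (pooled over Ppara KO and WT, log axis) against the mean log2 level of all 22180 genes (grey), with the 10 genes in red and Ppara as a black diamond. Ttll12 lies near the lower edge for its level, and Pkdrej and Celsr1 near the upper edge. Cyb5r3 has the lowest SD of the 10, and few genes are as bright.

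The animal that came closest to the other genotype differed from gene to gene. Among Ppara KO animals, number 1 was nearest to the WT mean for 3 genes (Ttll1, Ttll12 and Prr5), numbers 2, 3 and 6 for 2 genes each, number 4 for 1 and number 5 for 0. Among WT animals, number 3 was nearest to the Ppara KO mean for 3 genes (Atxn10, Pkdrej and Gramd4), numbers 4 and 5 for 2 each, and numbers 1, 2 and 6 for 1 each. Set on a scale from 0% at the WT mean to 100% at the Ppara KO mean, the median over the 10 genes lay between 91.4% and 103% in the 6 Ppara KO animals and between -17.5% and 9.53% in the 6 WT animals. Ppara KO 1 stood at 54.7%, 75.3% and 21.0% for Ttll1, Ttll12 and Prr5, but at 136.8% for Fam118a, which lies between Prr5 and Ppara.

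**Figure D3:**
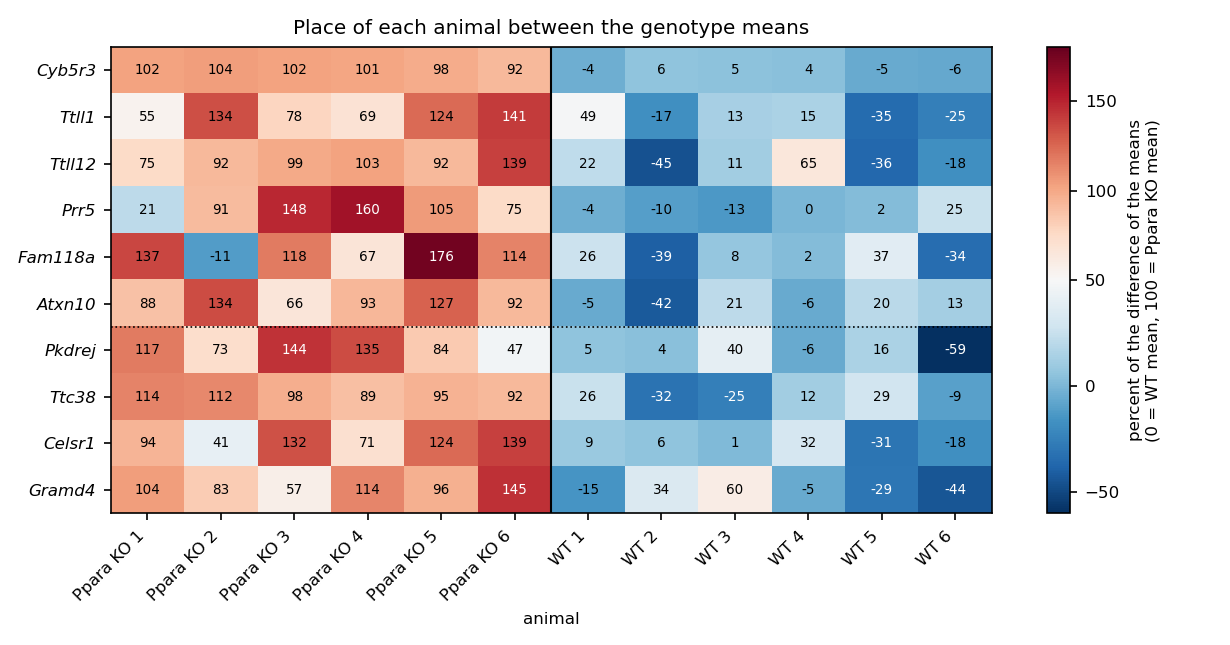
Place of each animal (columns, Ppara KO left and WT right) between the genotype means, in percent, for the 10 genes in chromosome order (rows, with the place of Ppara as a dotted line). White marks the midpoint; the pale or opposite cells, such as Fam118a in Ppara KO 2 and Prr5 in Ppara KO 1, fall in different animals for different genes.

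No pair of the 10 genes was shown to vary together from animal to animal once the genotype means were taken away. Of 45 pairs, 0 passed at an adjusted p under 0.05 (permutation of animals within genotype, 12 animals, Benjamini-Hochberg over the 45 pairs), and 2 had an unadjusted p under 0.05 by Pearson's r and 3 by Spearman's rho. The lowest Pearson p was that of Ttll1 with Ttll12 (Pearson r = 0.61, permutation p = 0.0328, adjusted p = 0.852, and Spearman rho = 0.59, permutation p = 0.0427, adjusted p = 0.744), with r = 0.55 without the 2 animals farthest from the median of Ttll1. The next was Ttll12 with Celsr1 (r = 0.51, permutation p = 0.0477, adjusted p = 0.852, and rho = 0.57, permutation p = 0.0396, adjusted p = 0.744), which fell to r = 0.18 without the 2 animals farthest from the median of Ttll12 and so rests on them. Prr5 with Gramd4 passed the unadjusted threshold by rank alone (r = -0.38, permutation p = 0.185, adjusted p = 0.979, and rho = -0.57, permutation p = 0.0496, adjusted p = 0.744), with r = -0.77 without the 2 animals farthest from the median of Prr5. Direct neighbours among the 10 had r = 0.02 (Pkdrej with Ttc38) and r = 0.23 (Celsr1 with Gramd4). Over all 45 pairs r ran from -0.61 to 0.61, with 22 above and 22 below 0, and the lowest, Fam118a with Celsr1 (permutation p = 0.0766, adjusted p = 0.852), was -0.19 without the 2 animals farthest from the median of Fam118a. With 12 animals and 45 pairs, even r = 0.61 did not pass, so relations of that size or weaker are not excluded.

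For each gene, the genes most like it over the 12 animals, with genotype means removed, were looked up among 17169 named genes. The closest were Ldhal6b for Cyb5r3 (r = 0.92), Mblac2 for Ttll1 (0.90), Mansc1 for Ttll12 (0.90), Dvl2 for Prr5 (0.93) and Dlx6os1 for Fam118a (0.89). For the others they were Mtmr7 for Atxn10 (r = 0.87), Dnm2 for Pkdrej (0.93), Camk1d for Ttc38 (0.94), Chka for Celsr1 (0.89) and Snhg4 for Gramd4 (0.95). None of these 10 lies within 50 places of Ppara. The values are the highest of many, are given without a test, and share the same arrays.

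Other neighbours of Ppara differed too. Of the 100 measured genes within 50 places of Ppara, 23 were called (limma, adjusted p under 0.05), 4 higher and 19 lower in Ppara KO, against 10.2% of all 22180 genes (4.46% higher and 5.77% lower). Without the 10 genes, 13 of the other 90 (14.4%) were called, a share lowered by construction because only called genes were taken out. In the rest of chromosome 15, 13.6% were called. Without WT 1, 3 and 5, the animals with the highest adipocyte markers, 14 of the 100 and 1008 of all genes (4.54%) were called, and without WT 1, 2 and 3, those with the highest proliferation markers, 14 and 882 (3.98%). No test was made of these shares, since the 10 genes were picked from the window for their difference. All 23 calls fell on the 83 protein-coding genes of the window, and the share by gene type over the array was not counted. Of the 23, 21 fell on the 61 genes at or above the median level, 34.4%, against 17.5% of such genes on the whole array. Below that level 5.13% of the window and 2.92% of the whole array were called.

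The calls are given here by side and place as a description, and their layout was not tested. Before Ppara 8 of 50 genes were called and after it 15 of 50. The share called was 10.2% of all genes and 13.6% of the rest of chromosome 15. Of the 10 nearest genes before Ppara only Atxn10 was called, while of the 10 nearest after it 6 were: Pkdrej, Ttc38, Gtse1, Celsr1, Gramd4 and Cerk. Pkdrej, Ttc38, Celsr1 and Gramd4 were picked for their difference. The sides also differ in level. Mirlet7b, Mirlet7c-2, AU022754, Wnt7b, Gm4825, Gm19277 and Ribc2 before Ppara lie below the median of all genes (4.57), but only Pkdrej and Tafa5 after it. On the whole array 2.92% of genes below that level were called, against 17.5% of the rest. The part of level was not tested. Gtse1, which encodes a protein of dividing cells that binds microtubules and p53, rose by 0.47 (SE 0.11, limma adjusted p = 0.0125), to 4.88 ± 0.15 in Ppara KO, against 4.41 ± 0.25 in WT (SD, n = 6 each), whereas 3 of the 5 proliferation markers fell. Cerk, the ceramide kinase gene, had a difference of -0.36 ± 0.090 (limma adjusted p = 0.0181). Between these genes Trmu, a tRNA modification enzyme gene, had 5.35 ± 0.12 in Ppara KO and 5.35 ± 0.21 in WT and was not called, and the next neighbour of Ppara, Cdpf1, had a difference of 0.15 ± 0.089 and was not called. The microRNA genes Mirlet7b and Mirlet7c-2 directly before Ppara were dim and not called (0.25 ± 0.18 and 0.46 ± 0.18). Nor were the other 7 nearest before it, Wnt7b (0.08 ± 0.096), Fbln1 (-0.38 ± 0.16), Ribc2 (-0.03 ± 0.16), 7530416G11Rik (0.01 ± 0.10), the pseudogene Gm4825 (-0.23 ± 0.14) and the long non-coding RNA genes AU022754 (-0.07 ± 0.091) and Gm19277 (0.15 ± 0.099), or Tbc1d22a (-0.17 ± 0.074) and Tafa5 (0.12 ± 0.087) after it.

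Farther out, 20 genes in places 9 to 28 after Ppara had 0 calls in the limma fit, and places 29 to 44 had 8 of 16. Those limits were drawn after the values were seen, so neither count was tested against the 10.2% of all genes. These 8 were Plxnb2, a semaphorin receptor gene (-0.24 ± 0.057), Dennd6b (-0.50 ± 0.11), Ppp6r2, a phosphatase subunit gene (-0.31 ± 0.069), Lmf2, a lipase maturation factor family gene (-0.38 ± 0.071), Odf3b (-0.74 ± 0.14), Klhdc7b (-0.36 ± 0.10), Rabl2, a small GTPase gene (-0.53 ± 0.093), and Arsa, the arylsulfatase A gene and the only one higher (0.34 ± 0.090). The other called genes were Abcd2, a peroxisomal fatty acid transporter gene, at place 50 after Ppara (-2.10 ± 0.18), Pnpla3, a lipid droplet lipase gene, at place 26 before (-1.80 ± 0.39), and 5031439G07Rik at place 15 before (-0.41 ± 0.077). Adjusted p-values of these 11 ran from 2.49e-06 for Abcd2 to 0.0387 for Klhdc7b. The calls of Klhdc7b and Arsa were lost without single animals, Klhdc7b without any 1 of Ppara KO 1, 2, 3 and 6 and WT 1, 2, 3 and 6 (-0.38 to -0.29) and Arsa without any 1 of Ppara KO 2 and 3 and WT 4 and 5 (0.29 to 0.32).

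**Figure D4:**
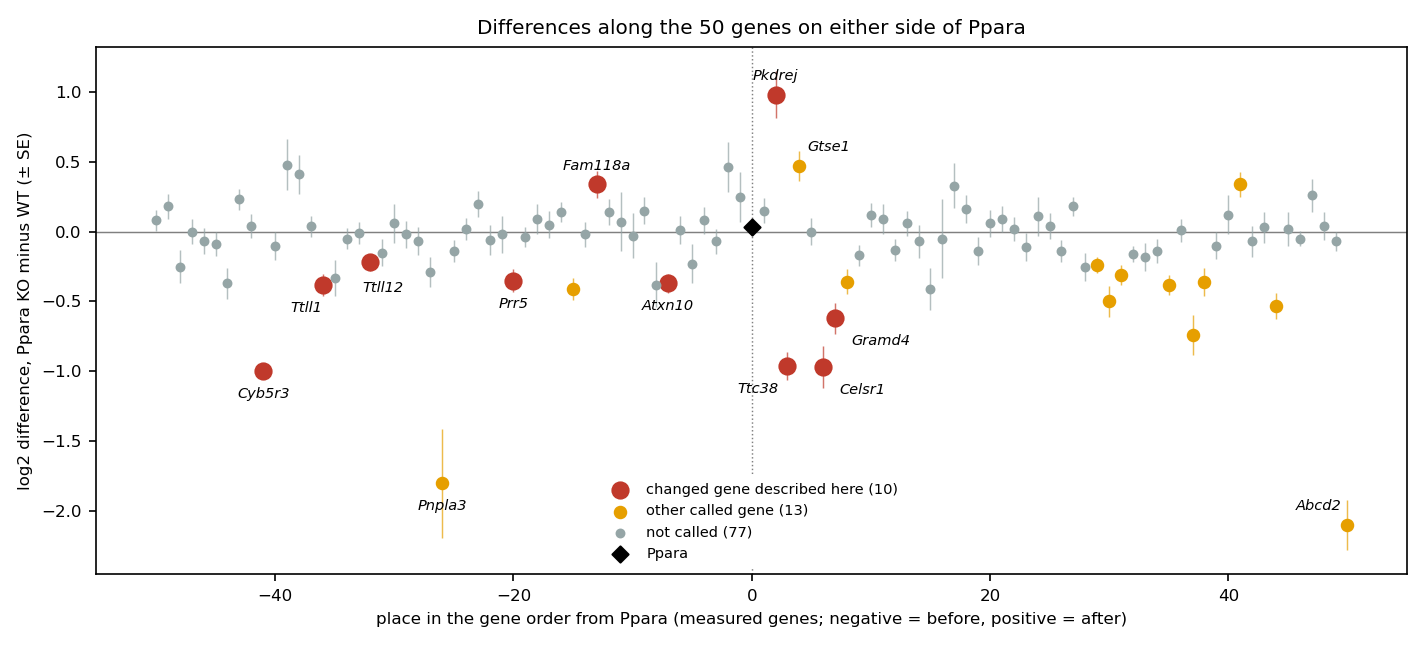
Log2 difference, Ppara KO minus WT, with its SE, for the 100 measured genes on either side of Ppara by their place in the gene order. The 10 genes are in red, the 13 other called genes in orange and the 77 that were not called in grey. The called genes directly after Ppara include Pkdrej, Ttc38, Celsr1 and Gramd4, which were picked for their difference. In places 29 to 44 after Ppara, 7 called genes are lower and 1, Arsa, is higher.

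The share of called genes was 20.0% (10 of 50) in places 1 to 25 from Ppara on both sides, 26.0% (13 of 50) in places 26 to 50 and 16.0% (8 of 50) in places 51 to 75. Beyond that it ran between 4.0% and 18.0% per 50 or fewer genes up to place 300. The nearest 20 genes alone, 10 on either side, had 7 calls (35.0%). Of the calls in the first 2 bins, 10 are the genes picked for this difference, so the shares are given as a description.

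**Figure D5:**
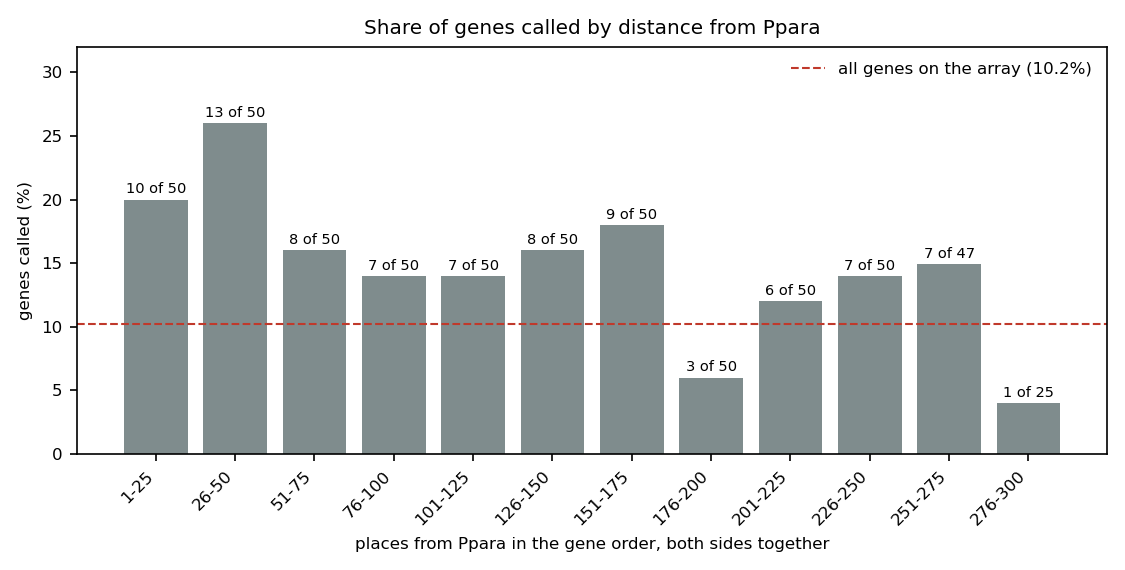
Percent of genes called in the limma fit by distance from Ppara along chromosome 15, in bins of 25 places on both sides together, with the number called of the number measured above each bar. The first 2 bins stand at 20.0% and 26.0%, and the dashed line marks the 10.2% of all genes.

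Relatives of the 10 genes by family or complex, nearly all of them elsewhere in the genome, were measured too: of 67 in 7 lists, 4 rose and 5 fell (13.4%, against 10.2% of all, a like share). The lists were written with earlier results of these arrays known. In the cytochrome b5 system around Cyb5r3, 1 of 9 rose and 1 fell: Cyb5a, the electron acceptor cytochrome b5 itself, rose by 0.22 (SE 0.063, limma adjusted p = 0.0333), and the reductase-like gene Cyb5rl fell by 0.31 (SE 0.076, limma adjusted p = 0.0170). Mtarc1 (-0.02 ± 0.057) and Cyb5b (0.01 ± 0.074), the outer mitochondrial membrane members of that system, were not called. Of the 12 measured tubulin tyrosine ligase-like genes 0 were called in the limma fit, with Ttll4 at 0.07 ± 0.088 and Ttll5 at 0.18 ± 0.087, and Ttll8, at place 18 after Ppara, at 0.16 ± 0.10.

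In mTOR complex 2 and its partners, 1 of 11 was called, Deptor, an mTOR inhibitor gene (0.26 ± 0.066, limma adjusted p = 0.0211, and 0.0502 without Ppara KO 6), while Mapkap1 (-0.13 ± 0.056) and Akt1 (-0.00 ± 0.060) were not. Among 10 ataxin genes, which share a name through disease and not a function, Atxn7 rose by 0.30 (SE 0.069) and Atxn1 fell by 0.28 (SE 0.084), and the brightest of the rest, Atxn2 (-0.06 ± 0.064) and Atxn7l3b (-0.07 ± 0.089), were not called. Of the 6 polycystin family genes 0 were called, with Pkd1 at -0.09 ± 0.063 and Pkd2l2 at 0.00 ± 0.11. In the planar cell polarity list 2 of 14 fell, the core membrane protein gene Vangl1 (-0.32 ± 0.078) and the receptor gene Fzd6 (-0.33 ± 0.094), and Dvl2, a cytoplasmic transducer gene, rose (0.24 ± 0.066), with Dvl3 (-0.02 ± 0.071) and Dvl1 (-0.03 ± 0.071) not called. Of 5 GRAM domain genes Gramd1b fell (-0.31 ± 0.092), and Gramd3 (-0.11 ± 0.097) and Gramd1c (-0.17 ± 0.11) were not called. The limma adjusted p of the ataxin, polarity and GRAM domain calls ran from 0.00985 for Atxn7 to 0.0434 for Atxn1. Of the 9 calls among relatives, those of Cyb5rl, Atxn7 and Vangl1 held without any single animal, and those of Cyb5a, Atxn1, Fzd6, Dvl2 and Gramd1b were lost without any 1 of 8, 10, 10, 5 and 9 of the 12 animals.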

How the data were processed

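RNA from 12 livers, 6 Ppara KO and 6 WT, was hybridised to Affymetrix MoGene 2.0 ST arrays. The deposited values are log2 levels made by the authors with RMA, and Partek is named as well, per the submitters' processing notes, without versions. The genome build behind the annotation was not stated. RMA brings arrays to a common distribution (array medians 4.13 to 4.17) and understates folds of dim genes.

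Of 41345 transcript clusters, 23521 had 1 symbol in the platform annotation, and the brightest cluster stood for a gene, which left 22180 genes. The order of genes on chromosome 15 was taken from RefSeq (GRCm38.p6), counting measured genes. All genes were fitted with limma 3.58.1 (R 4.3.3; lmFit and eBayes, 1 mean per genotype, 2-sided, Benjamini-Hochberg over all genes), and a gene was called at an adjusted p under 0.05. Differences are Ppara KO minus WT with the limma SE. The fit was tested on simulated data. Correlations between the 10 genes used 100000 permutations within genotype (scipy 1.17.1).

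The 10 genes and the lists were chosen with earlier results of these data known. Named are the 10 genes, every called gene and the 10 nearest on either side among the neighbours, and in each list of relatives the called genes and the 2 with the highest level among the rest. Array number limits the precision: the median SD within genotype was 0.164. Same-numbered animals are not stated to be pairs.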

Additional observations from a re-analysis of the deposited data

Results flagged for a closer look

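In each genotype the highest and the lowest of the 6 animals were compared with the rest for the 10 genes, Ppara, the other named neighbours and the means of the marker lists, 92 groups in all. An animal stood far from the other 5 in 4 of them, and chance flags about 1 group in 20. None of the 20 groups of the 10 genes was among them. Trmu, the gene between Gtse1 and Celsr1 that was not called, was at 5.77 in WT 5, against 5.19 to 5.34 in the other WT animals. Ppara KO 3 was low in 2 called neighbours: Odf3b was at 5.77 there, against 6.34 to 6.62 in the other Ppara KO animals, and Rabl2 at 5.13, against 5.32 to 5.42. The mean of the 6 Kupffer cell and macrophage markers was 8.19 in Ppara KO 2, against 7.36 to 7.57 in the other Ppara KO animals. That animal was also the highest Ppara KO value of Celsr1 and the lowest of Fam118a, and the part of these cells in either value was not tested.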

How the results depend on the processing

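All 190 values of the 10 differences under 19 alternatives each kept their direction and moved by less than 1 SD within genotype. For most of the alternatives this could not have been otherwise, so nothing is read from it. Leaving out 1 of 6 animals cannot move a difference by 1 SD. The block does not change it, and each of the 10 genes had only 1 cluster to average. The count of calls within 50 places of Ppara was 23 as reported, 20 to 23 without each single animal, and 22 with the replicate number as a block (replicate block), and over the whole array it was 2268, 1817 to 2130 and 1672. Animals with the same number did not deviate together (correlations of -0.047 to 0.043), so the numbers were not taken as pairs. The count near Ppara (over the array) was 14 of 100 (1008 of 22180) without WT 1, 3 and 5, 14 (882) without WT 1, 2 and 3, 15 (1070) at an adjusted p under 0.01 and 8 (508) with a change of at least 1.5-fold as well. It was 26 (2681) with a trended and robust prior, 25 (2336) with quantile normalization again, 23 with median centring (2255), array weights (2313) and averaged clusters (2202), 19 (2168 of 41345) with all clusters in the adjustment, and 26 of 61 (2802 of 11090) among genes at or above the median level. A stricter threshold can only lower both counts. Leaving out a trio changes the number of arrays and removes the animals highest in adipocyte or proliferation markers, and the part of each was not tested. The count near Ppara was 10 of 50 within 25 places, 38 of 200 within 100 and 10 of 47 with places counted over all RefSeq genes. It was 13 of 90 without the 10 genes, a removal of called genes only. Bins of 10 places gave 35.0% in the nearest bin. The calls of Ttll12 and Fam118a ended without any 1 of 8 animals each, Ttll12 without Ppara KO 2, 3, 4 and 6 and WT 2, 3, 5 and 6 (-0.23 to -0.20) and Fam118a without Ppara KO 1, 3, 5 and 6 and WT 2, 3, 4 and 6 (0.29 to 0.34). Of the 10 genes, 5 had an SD within genotype below the median of all genes, or 6 by the range. Ttll12, Prr5 and Fam118a were no longer called without either trio of WT animals, and Ttll12 not with the block. Dim genes such as Pkdrej lie near background, where differences are compressed.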
